A study of Homo sapiens with 2 samples.

Results

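Binding of wt-Cdx1 or wt-Cdx2 carrying a FLAG tag was examined at CDH17, SLC5A8 and MB, the myoglobin gene. The study names CDH17 as a target of CDX2. SLC5A8 was taken here as a further target because the ChIP-qPCR primer list of the study includes it, and MB was taken as the control locus. Peaks were assigned to a locus when the summit lay in a fixed window around the gene. The windows spanned positions 95129000 to 95240000 of chromosome 8 for CDH17 (111 kb), 101539000 to 101615000 of chromosome 12 for SLC5A8 (76 kb), and 35992000 to 36044000 of chromosome 22 for MB (52 kb). All positions of windows and peaks are those of GRCh37, the build given in the submitters' processing notes. In total, the 3 windows held 20 of 196910 peaks for FLAG-wt-Cdx1 and 23 of 218718 for FLAG-wt-Cdx2. The windows are set by position alone, although the loci were chosen with earlier results of these data known.

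CDX1 and CDX2 are intestine-specific homeodomain proteins that bind AT-rich DNA and activate genes of the differentiated intestinal epithelium. CDH17 encodes liver-intestine cadherin, which joins neighboring epithelial cells. SLC5A8 encodes a sodium-coupled transporter that brings short-chain fatty acids such as butyrate into colonic epithelial cells. MB encodes the oxygen-storing protein of heart and skeletal muscle, and its locus served in the primer list of the study beside those of CDH17 and SLC5A8. The nearest protein-coding genes in the RefSeq annotation of GRCh38.p14 were PDP1 and GEM for CDH17, ANO4 and UTP20 for SLC5A8, and RASD2 and APOL6 for MB.

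The cells were DLD1-TetOff, a human colon cancer line with a doxycycline (DOX)-repressed transactivator, expanded as single-cell clones that carry FLAG-tagged mouse wt-Cdx1 or wt-Cdx2. Expression was induced by taking away DOX (0.5 µg/mL), and chromatin from 10 pooled dishes was collected 20 h later, with 1 library per factor. The sample descriptions mention cells kept with DOX, whereas the protocols state its withdrawal, and both libraries were taken as induced. After removal of duplicates, the FLAG-wt-Cdx1 library had 16452141 tags and the FLAG-wt-Cdx2 library 13781541. A library from input DNA, or from cells without the tagged protein, was not analysed here. With 1 library per factor, no difference between the factors could be tested, and the clone, the library and the factor cannot be told apart.

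The ChIP-qPCR primers of the study show which part of each gene was amplified. Those for SLC5A8 (amplicons at -2121 to -1958, -1429 to -1270 and -740 to -590 from the TSS) and for MB (+290 to +411) are given here in 5′ to 3′ direction. TTTATN, the core of the CDX site, would stand in capitals on either strand, and none of these primers held it.
Distal SLC5A8 amplicon, forward: tcaaattgaaaggactcacca
Distal SLC5A8 amplicon, reverse: gaacagctagatttttgtttcctca
Middle SLC5A8 amplicon, forward: ggctaagatatcatggctcgt
Middle SLC5A8 amplicon, reverse: ttcatcttcttttggacacctaga
Proximal SLC5A8 amplicon, primer named at -590: tcatattatttgagtgtgattcatgtg
Proximal SLC5A8 amplicon, primer named at -740: cgtgttataggtaggcaaaatgtg
MB amplicon, forward: gtgttagaacggtcacttgctttt
MB amplicon, reverse: ctaggtttgattctcatgcttcctc

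The 250 bases before the annotated starts of SLC5A8 and MB are shown for the same reason, as RefSeq gives them for GRCh38.p14. Their coordinates belong to that build and cannot be set beside those of the peaks. TTTATN is written in capitals without its last, free base (ATAAA on the other strand). RefSeq listed 1 start for SLC5A8 and 3 for MB, and the MB start with the core is shown. The core was found in 0 copies before the SLC5A8 start, in 1 copy before this MB start, at position -13, and in 0 copies before the other 2 MB starts. Of 35116 such stretches of all genes, 32.6% held the core. A match of these letters is not a measured site. Sequences of CDH17 are not reported here, so no count of the core is given for that target.
SLC5A8, chr12:101210239-101210488, minus strand: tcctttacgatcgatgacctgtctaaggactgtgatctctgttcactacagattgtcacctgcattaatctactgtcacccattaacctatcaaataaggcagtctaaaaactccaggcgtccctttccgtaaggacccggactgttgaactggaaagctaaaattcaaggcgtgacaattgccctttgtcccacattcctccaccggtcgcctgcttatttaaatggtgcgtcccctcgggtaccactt
MB, chr22:35623355-35623604, minus strand: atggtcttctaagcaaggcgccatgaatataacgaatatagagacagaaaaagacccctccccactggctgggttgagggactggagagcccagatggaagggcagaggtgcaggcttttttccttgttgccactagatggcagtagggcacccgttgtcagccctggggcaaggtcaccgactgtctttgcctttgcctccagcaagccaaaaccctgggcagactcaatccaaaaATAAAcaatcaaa

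Peaks of both factors were called at all 3 loci, and the 52 kb window of the control locus MB was not free of them. The study amplified only 122 bp at MB (+290 to +411), which was not placed in the window. Whether any peak touches that amplicon is therefore not known. In the CDH17 window, FLAG-wt-Cdx1 had 11 peaks and FLAG-wt-Cdx2 also had 11. In the SLC5A8 window the counts were 5 and 6, and in the MB window they were 4 and 6, respectively. Per 100 kb, this came to 9.91 and 9.91 at CDH17, 6.58 and 7.89 at SLC5A8, and 7.69 and 11.5 at MB. In these full lists, the density of FLAG-wt-Cdx1 peaks was thus highest at CDH17, and that of FLAG-wt-Cdx2 peaks was highest at MB. Both orders differed among stronger peaks, which were few. With −log10 q values of 5 or more, MB had the highest FLAG-wt-Cdx1 density (5.77 per 100 kb from 3 peaks, against 4.50 from 5 at CDH17). SLC5A8 had the highest for FLAG-wt-Cdx2 (2.63 from 2 peaks, against 1.92 from 1 at MB). The same loci came highest when fold enrichment had to reach 5, or when each list was limited to its 100000 peaks of highest −log10 q. For FLAG-wt-Cdx2, the densities were then 3.95 from 3 peaks at SLC5A8 and 3.85 from 2 at MB. These settings select much the same peaks, and 1 peak fewer at the leading locus would change either order. The pileup of a peak, that is, the number of fragments over its summit, reached 12 and 14 at CDH17, 11 and 10 at SLC5A8, and 17 and 14 at MB. Thus, neither target locus had a higher top pileup than MB in either library.

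**Figure D1:**
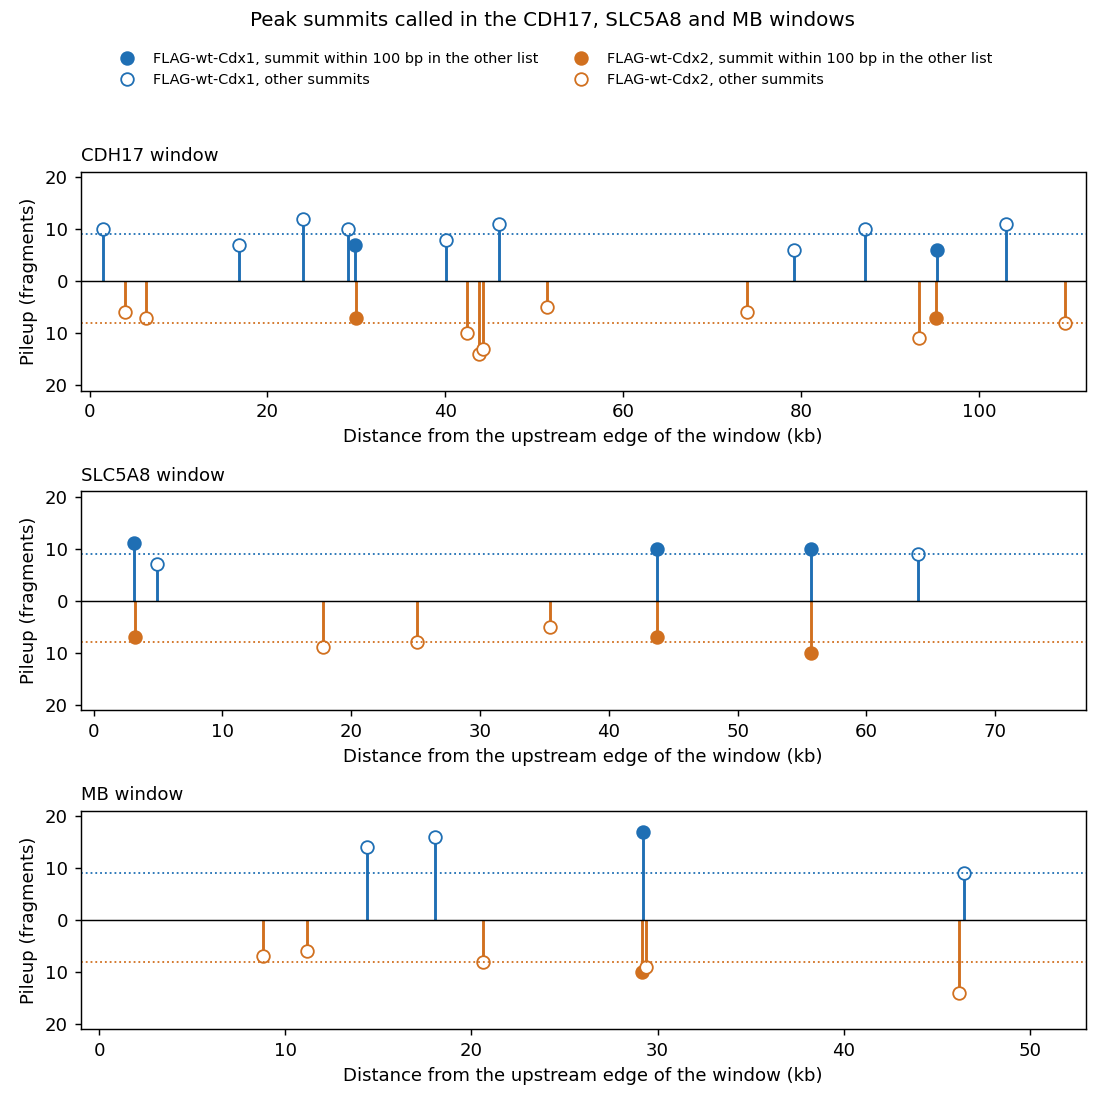
Summits of FLAG-wt-Cdx1 peaks (upward, blue) and FLAG-wt-Cdx2 peaks (downward, orange) in each window, by distance from the upstream edge (kb) and pileup (fragments). Filled points are summits with a summit of the other library within 100 bp (2 sites at CDH17, 3 at SLC5A8, 1 at MB), and dotted lines mark the median pileup of each whole list (9 and 8).

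At CDH17, the FLAG-wt-Cdx1 peaks had pileups of 6 to 12 fragments, with a median of 10, against a median of 9 over the whole list. The strongest had its summit at position 95216037, with a pileup of 12 (95% exact Poisson interval, 6.20 to 21). Its fold enrichment, the ratio of pileup to local background with a pseudocount of 1 on each, was 6.60. The next by fold enrichment were at 95238530 and 95152818 (6.12 each, both with 10 fragments), 95136955 (6.05, with 11) and 95210900 (5.98, with 10). These summits were spread over nearly the whole window. The remaining ones were at 95193973, 95199957, 95210106, 95223209, 95144752 and 95160741, with fold enrichments between 3.89 and 4.76. No FLAG-wt-Cdx1 summit was called over 33232 bp between 95160741 and 95193973, where FLAG-wt-Cdx2 had 2 summits, with 6 and 5 fragments. Conversely, no FLAG-wt-Cdx2 summit was called over 23639 bp between 95210013 and 95233652, where FLAG-wt-Cdx1 had 4. Summits without a partner were common, as only 29.2% (FLAG-wt-Cdx1) and 26.3% (FLAG-wt-Cdx2) of the lists had a summit of the other library within 100 bp.

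The FLAG-wt-Cdx2 peaks at CDH17 had pileups of 5 to 14 fragments, with a median of 7, against 8 over the whole list. By fold enrichment, the strongest was at 95146731, with 11 fragments (interval, 5.49 to 19.7) and a fold enrichment of 6.37. By pileup, it was at 95196237, with 14 fragments (7.65 to 23.5) but a fold enrichment of 5.02. This peak stood 455 bp from another at 95195782 (13 fragments, 4.75), and a further one followed at 95197552 (10 fragments, 3.75). The local background of these 3 peaks was 2.78 to 2.86 times the genome-wide value of the library, the highest of all peaks in the 3 windows. The nearest FLAG-wt-Cdx1 summit, at 95193973, also lay over the highest FLAG-wt-Cdx1 background of the CDH17 window (1.90 times), and its distance from 95195782 was 1809 bp. The other FLAG-wt-Cdx2 peaks were at 95130262 (fold enrichment 5.19), 95233652 (4.69), 95144806, 95210013, 95166076, 95236013 and 95188590, the last 5 with fold enrichments from 3.54 to 4.31.

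At SLC5A8, the FLAG-wt-Cdx1 peaks had pileups of 7 to 11 fragments. The summit at 101611869, near the upstream edge, had 11 (interval, 5.49 to 19.7) and the highest fold enrichment, 5.94. The summits at 101559270 and 101571234 had 10 fragments each, with fold enrichments of 5.62 and 4.96. Those at 101550974 (9 fragments, 5.56) and 101610059 (7 fragments, 4.12) completed the locus. In FLAG-wt-Cdx2, the strongest peak had its summit at 101559275, with 10 fragments (4.80 to 18.4) and a fold enrichment of 6.49. It stood 5 bp from the FLAG-wt-Cdx1 summit at 101559270. Pileups of 7 were found at 101571240 and 101611814, of 9 at 101597212, of 8 at 101589929 and of 5 at 101579548. The 3 last-named summits lay in a stretch of 38825 bp, between 101571234 and 101610059, in which no FLAG-wt-Cdx1 summit was called. The longest stretch without a FLAG-wt-Cdx2 summit was 14602 bp, between 101597212 and 101611814, and held 1 FLAG-wt-Cdx1 summit.

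At MB, the FLAG-wt-Cdx1 peaks at 36014755, 36025974 and 36029632 had pileups of 17 (interval, 9.90 to 27.2), 16 (9.15 to 26.0) and 14 (7.65 to 23.5) fragments, with fold enrichments of 7.84, 6.75 and 6.28. The pileups of all 3 were higher than that of any FLAG-wt-Cdx1 peak at CDH17 or SLC5A8. The peak at 35997530 had 9 fragments and a fold enrichment of 4.12. In FLAG-wt-Cdx2, the strongest peak was at 35997776, with 14 fragments (7.65 to 23.5) and a fold enrichment of 6.21. It was followed by a pair of summits 203 bp apart, at 36014819 (10 fragments, 5.20) and 36014616 (9 fragments, 4.73). The peaks at 36035215, 36023383 and 36032851 had 7, 8 and 6 fragments, with fold enrichments from 3.33 to 4.13.

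In the FLAG-wt-Cdx1 list, the MB peaks were also long. All 4 FLAG-wt-Cdx1 peaks at MB, of 189 to 662 bp, exceeded the median length of their list, 158 bp, as did 49.9% of all FLAG-wt-Cdx1 peaks. At SLC5A8, 0 of 5 did (131 to 149 bp), and at CDH17, 6 of 11 did. The MB peaks of 662 bp and 630 bp were longer than 99.5% and 99.4% of the FLAG-wt-Cdx1 list. In FLAG-wt-Cdx2, 4 of 6 peaks at MB, 3 of 6 at SLC5A8 and 9 of 11 at CDH17 were longer than the median of 161 bp, against 49.7% of the list.

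**Figure D2:**
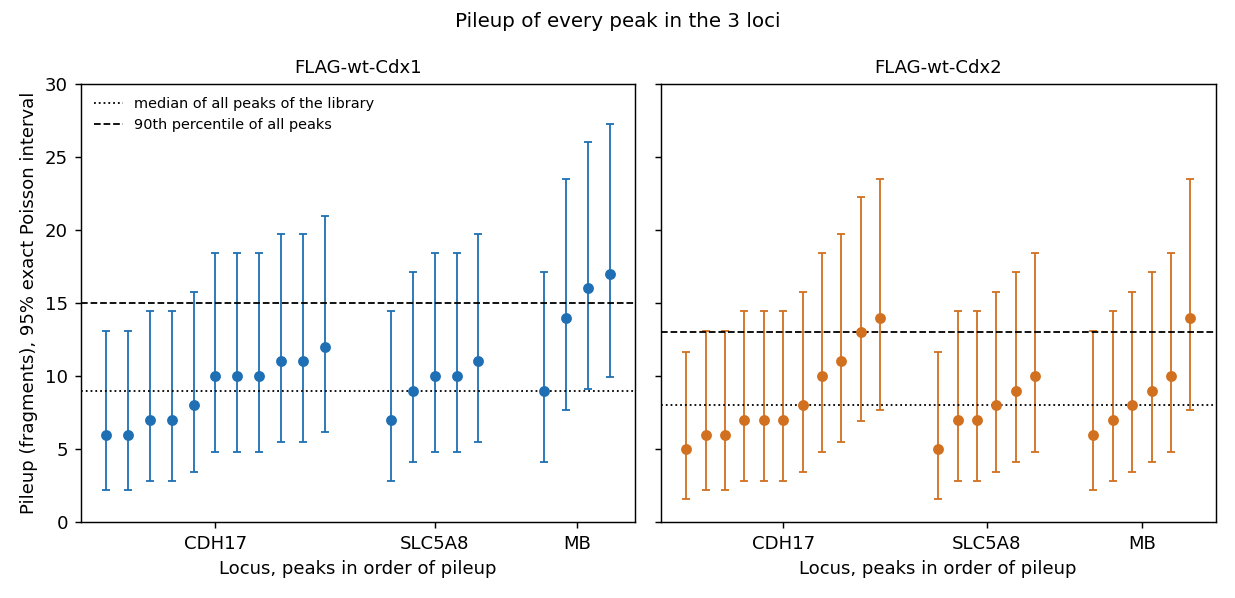
Pileup (fragments) of each peak by locus, in order of pileup, for FLAG-wt-Cdx1 (left) and FLAG-wt-Cdx2 (right). Bars are 95% exact Poisson intervals for counting error, and lines mark the median (9 and 8) and the 90th percentile (15 and 13) of all peaks of each library. Only MB has FLAG-wt-Cdx1 points above the dashed line (16 and 17), and the intervals of all loci overlap.

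The loci were placed within each library by the percentile of pileup, that is, the percentage of peaks in the library whose pileup was lower. With FLAG-wt-Cdx1, the highest peak stood at 93.2% for MB, 73.2% for CDH17 and 63.4% for SLC5A8. With FLAG-wt-Cdx2, it stood at 92.4% for both MB and CDH17 and at 72.4% for SLC5A8. When fold enrichment was ranked, the FLAG-wt-Cdx1 order was the same (92.5%, 79.8% and 67.7%). The FLAG-wt-Cdx2 values were then close together, with 86.1% for SLC5A8, 85.1% for CDH17 and 84.0% for MB, so that SLC5A8 was no longer lowest. The CDH17 peak ranked for FLAG-wt-Cdx2 was at 95196237 by pileup and at 95146731 by fold enrichment. Above the 90th percentile of pileup lay 2 of 4 FLAG-wt-Cdx1 peaks at MB and 0 of 16 at the targets, against 8.67% of the list. In FLAG-wt-Cdx2 it was 1 of 6 at MB and 1 of 17 at the targets, against 7.62% of the list. The 95% Poisson intervals of the top peaks overlapped between all 3 loci in both libraries, so that their order was within counting error.

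Thresholds that do not depend on the top peak were applied next. A pileup above the median of the list was found at 9 of 16 FLAG-wt-Cdx1 peaks of the target loci and at 3 of 4 of MB, against 49.9% of all peaks. With FLAG-wt-Cdx2, it was found at 6 of 17 and 3 of 6, against 39.8% of all peaks. A −log10 q of at least 5 was reached by 5 of 11 FLAG-wt-Cdx1 peaks at CDH17, 3 of 5 at SLC5A8 and 3 of 4 at MB, against 52.2% of the list. For FLAG-wt-Cdx2, 2 of 11, 2 of 6 and 1 of 6 reached it, against 29.0% of the list. MB thus had the largest share of FLAG-wt-Cdx1 peaks past this value and SLC5A8 the largest share of FLAG-wt-Cdx2 peaks, each over 6 peaks or fewer and without a test.

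As longer windows hold more peaks, each locus was set beside all windows of its own length laid end to end over the autosomes and chromosome X, leaving out those without any peak in either library. The CDH17 counts were equalled or exceeded in 21.5% of 25319 such windows by FLAG-wt-Cdx1 and in 31.3% by FLAG-wt-Cdx2. For SLC5A8, these values were 59.0% and 54.9% of 36683 windows, and for MB they were 49.7% and 25.6% of 52962 windows. The top pileup was equalled or exceeded in 77.6% (FLAG-wt-Cdx1) and 40.5% (FLAG-wt-Cdx2) of windows for CDH17, and in 77.7% and 70.6% for SLC5A8. For MB, it was 16.7% and 23.5%. Accordingly, the top FLAG-wt-Cdx1 pileups of CDH17 and SLC5A8 were below the median of like windows, 14 and 13 fragments, and that of MB was above its median of 12. Among windows of the same chromosome only, the counts were equalled or exceeded in 30.9% and 31.4% for CDH17. For SLC5A8 it was 65.9% and 58.5%, and for MB 36.7% and 20.6%. The top pileups were equalled or exceeded in 84.6% and 40.6%, 82.5% and 76.1%, and 19.1% and 26.4% of these windows, respectively.

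Sharing between the factors was then examined, with summits called shared when they lay within 100 bp of each other. At CDH17, 2 of 11 FLAG-wt-Cdx1 peaks (18.2%; 95% exact Clopper-Pearson interval, 2.28 to 51.8) and 2 of 11 FLAG-wt-Cdx2 peaks were shared. At SLC5A8, 3 of 5 (60.0%; 14.7 to 94.7) and 3 of 6 (50.0%; 11.8 to 88.2) were shared. At MB, 1 of 4 (25.0%; 0.631 to 80.6) and 1 of 6 (16.7%; 0.421 to 64.1) were shared. Over the whole lists, 29.2% (FLAG-wt-Cdx1) and 26.3% (FLAG-wt-Cdx2) were shared, and both values lay within the intervals of every locus. SLC5A8 therefore had the largest share, but it was not separable from those of CDH17 and MB at these numbers of peaks.

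**Figure D3:**
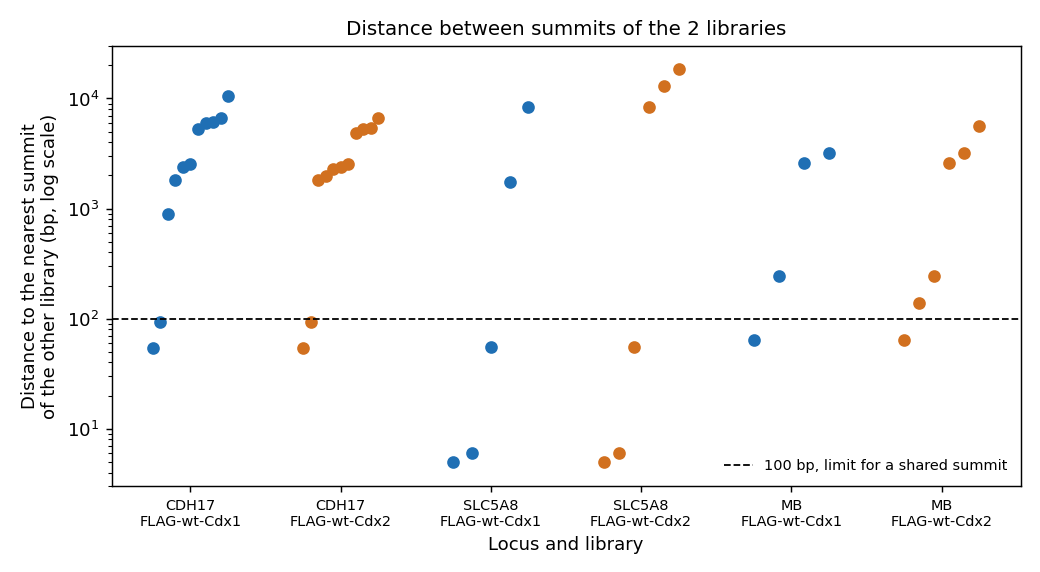
Distance (bp, log scale) from each summit to the nearest summit of the other library, by locus and library, with the 100 bp limit as a dashed line. The closest pairs, 5 and 6 bp apart, are at SLC5A8, whereas 9 of the 11 summits of each library at CDH17 lie above the line.

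The shared summits that lay closest together were a pair of sites at SLC5A8. The pairs there were 5, 6 and 55 bp apart, those of CDH17 were 54 and 93 bp apart, and that of MB was 64 bp apart, against a median of 26 bp over all shared summits. At MB, overlap of peaks by at least 1 bp gave more partners than summit distance, with 2 of 4 peaks (FLAG-wt-Cdx1) and 3 of 6 peaks (FLAG-wt-Cdx2), against 34.2% and 30.8% of the lists. The long FLAG-wt-Cdx1 peak at 35997530 overlapped the strongest FLAG-wt-Cdx2 peak of the locus, but their summits were 246 bp apart. Likewise, both FLAG-wt-Cdx2 peaks of the close pair overlapped the strongest FLAG-wt-Cdx1 peak at 36014755. At CDH17 and SLC5A8, overlap gave the same counts as summit distance. The strongest peaks of the factors by fold enrichment were at different sites in all 3 loci, but which peak led was within counting error in each. At SLC5A8, the top FLAG-wt-Cdx1 peak at 101611869 had 11 fragments (5.49 to 19.7). The FLAG-wt-Cdx1 peak at 101559270, 5 bp from the top FLAG-wt-Cdx2 summit, had 10 (4.80 to 18.4). At MB, the top FLAG-wt-Cdx2 peak at 35997776 had 14 (7.65 to 23.5). That at 36014819, 64 bp from the top FLAG-wt-Cdx1 summit, had 10 (4.80 to 18.4). At CDH17, the top FLAG-wt-Cdx1 peak at 95216037 had 12 (6.20 to 21), and that at 95136955 had 11 (5.49 to 19.7).

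At the 6 shared sites, the pileups of the factors were compared after scaling to the kept tags. The ratio of FLAG-wt-Cdx1 to FLAG-wt-Cdx2 was 1.42 at MB 36014755, where 17 and 10 fragments were counted (95% exact binomial interval, 0.616 to 3.48). At SLC5A8, it was 1.32 at 101611869 (11 and 7 fragments; 0.466 to 4.00), 1.20 at 101571234 (10 and 7; 0.411 to 3.70) and 0.838 at 101559270 (10 and 10; 0.313 to 2.24). At CDH17, it was 0.838 at 95210106 (7 and 7; 0.251 to 2.80) and 0.718 at 95144752 (6 and 7; 0.199 to 2.50). All 6 intervals included 1, and 0 of 6 ratios passed 2-fold in either direction, against 7.71% of 57545 shared sites. All 6 intervals also included a ratio of 2, and those of the 5 sites at CDH17 and SLC5A8 included a ratio of 0.5, which lay outside the interval at MB.

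The local background differed between the loci in both libraries. It is the larger of the genome-wide value (0.798 fragments in the FLAG-wt-Cdx1 library, 0.694 in the FLAG-wt-Cdx2 library) and that of the surrounding 10 kb. At MB, it exceeded that value 1.62 to 1.90 times in the FLAG-wt-Cdx1 library and 1.35 to 2.04 times in the FLAG-wt-Cdx2 library, and 0 of 10 peaks stood at the genome-wide value. At SLC5A8, 1 of 5 peaks stood at it in the FLAG-wt-Cdx1 library and 5 of 6 did in the FLAG-wt-Cdx2 library, against 30.7% and 41.9% of the lists. At CDH17, 4 of 11 and 2 of 11 did, with a range of 1 to 1.90 times (median 1.05) and 1 to 2.86 times (median 1.23) the genome-wide value, respectively. Medians over all peaks were 1.17 and 1.08 times. Over the peaks of single chromosomes, they were 1.35 and 1.04 times for chromosome 8, which holds CDH17. For chromosome 12 (SLC5A8) they were 1.17 and 1.08 times, and for chromosome 22 (MB) 1.13 and 1.18 times. The highest FLAG-wt-Cdx1 pileups, at MB, and the highest FLAG-wt-Cdx2 pileups, at MB and CDH17, thus all stood over a raised background, the part of which in them was not tested. As no control was used, this background was counted in the same library and includes the fragments of the peaks themselves. Pileup and local background are therefore not independent. Because a raised background also raises the pileup needed for a call, the lowest pileup called over a background like that of MB was 6 (FLAG-wt-Cdx1) or 5 (FLAG-wt-Cdx2) fragments, against 5 or 4 for SLC5A8.

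**Figure D4:**
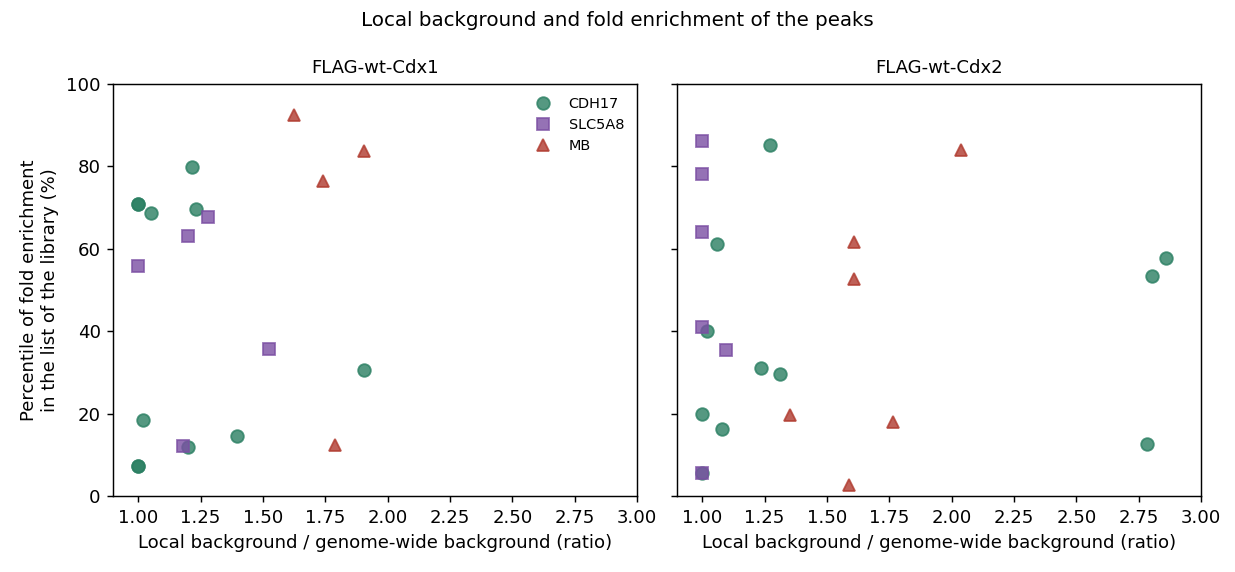
Local background relative to the genome-wide value of the library (ratio, x axis) and percentile of fold enrichment in the whole list (%, y axis) for each peak at CDH17 (circles), SLC5A8 (squares) and MB (triangles). MB points lie at 1.35 or above in both panels, and 3 CDH17 points of FLAG-wt-Cdx2 lie near 2.8; coinciding points overlie each other.

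Lastly, the stretches amplified by ChIP-qPCR upstream of the targets were searched. The TSS was placed 10 kb inside the upstream edge of each window, since no annotation of GRCh37 was used here, and both genes lie on the minus strand. The stretch from -1699 to +71 of CDH17 was overlapped by 0 peaks in the FLAG-wt-Cdx1 list and by 0 in the FLAG-wt-Cdx2 list. The nearest FLAG-wt-Cdx1 summits were 8530 bp upstream and 6791 bp downstream of the TSS so placed, and the nearest FLAG-wt-Cdx2 summits were 3652 bp upstream and 19987 bp downstream. The stretch from -2121 to -590 of SLC5A8, to which the primers printed above belong, was likewise overlapped by 0 peaks of either factor. There, the nearest FLAG-wt-Cdx1 summits were 5059 bp upstream and 33766 bp downstream, and the nearest FLAG-wt-Cdx2 summits were 6814 bp upstream and 7788 bp downstream. The counts were 0 as well with the TSS placed 9, 11 or 12 kb inside the edge. Both stretches were short, 1771 bp at CDH17 and 1532 bp at SLC5A8. The median gap between neighboring summits was 7860 and 9826.5 bp at CDH17, and 10130 and 10381 bp at SLC5A8. A count of 0 is therefore usual for a stretch of this length anywhere in these windows, and says little about these promoters. The share of like stretches without a peak was not computed. Since the lists hold only peaks past the threshold, with at least 5 (FLAG-wt-Cdx1) or 4 (FLAG-wt-Cdx2) fragments, weaker binding in these stretches was not detectable. The MB amplicon was not placed, because the start it is counted from is not known among the 3 of RefSeq.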

How the data were processed

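Peak lists from ChIP-seq against FLAG in DLD1-TetOff cells were analyzed, with 1 library for wt-Cdx1 and 1 for wt-Cdx2. Samples were grouped by their titles. Per the labels, reads were processed with bcl2fastq 1.8.3, cutadapt 1.1 and Trimmomatic 0.32 and placed on GRCh37. The aligner and its settings are not given in the sources used here. Chromatin had been fixed with 1% formaldehyde for 5 min and digested with MNase for 50 min, an enzyme that cuts DNA between nucleosomes. Per the file headers, the authors called peaks in each library using MACS (version 2.0.10.20131216) with q-values up to 0.05, for a genome of 2700000000 bp, keeping 1 tag per position and using no control. Without a control, regions that yield more DNA irrespective of the factor are not corrected for. The deposited pileup signal is not scaled to depth. The deposited fold enrichment is a ratio to the local background, and the deposited −log10 p-value and −log10 q-value were computed by the authors against the same background.

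The local background was recovered from pileup and fold enrichment. Members, thresholds and comparisons were chosen with earlier results of these data known. Up to 5 peaks of a locus were all named; beyond this, the 5 of highest fold enrichment, the shared ones and the one nearest to the TSS were named, and the remaining peaks were added so that every peak is accounted for. Genes of similar pattern were not sought, and the gene families planned for comparison were not counted, since no annotation of GRCh37 was used. No test between groups was made. Intervals at a level of 95% cover counting error only, and, as a summit is the highest point of its peak, its pileup tends to be high. The matching of summits and peaks was tested on simulated data. Values were computed in Python 3.11.15 with scipy 1.17.1, pandas 2.3.3 and numpy 2.4.6, and plotted by matplotlib 3.10.9. Alternatives covered thresholds, windows, rankings and definitions of sharing.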

Additional observations from a re-analysis of the deposited data

How the results depend on the processing

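Stricter selection of peaks lowered the counts. When −log10 q had to reach 5, there were 5 peaks in the FLAG-wt-Cdx1 list and 2 in the FLAG-wt-Cdx2 list at CDH17, 3 and 2 at SLC5A8, and 3 and 1 at MB. With a fold enrichment of at least 5, the counts were 5 and 3, 3 and 3, and 3 and 2, and with the 100000 peaks of highest −log10 q of each list they were 5 and 4, 3 and 3, and 3 and 2, respectively. Without 10 kb at each end, SLC5A8 kept 3 FLAG-wt-Cdx1 peaks, and the other counts were within 1.5 times. Counting any overlap with the window changed no count.

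The top percentile of CDH17 was 79.8 by fold enrichment, 80.4 by −log10 q and 52.8 by pileup on chromosome 8 alone for FLAG-wt-Cdx1, and 85.1, 86.1 and 93.1 for FLAG-wt-Cdx2. That of SLC5A8 was 67.7, 66.5 and 65.5 for FLAG-wt-Cdx1, and 86.1 and 83.9 for FLAG-wt-Cdx2, with no change on its chromosome. That of MB was 92.5, 93.5 and 92.1 for FLAG-wt-Cdx1, and 84.0, 88.3 and 90.8 for FLAG-wt-Cdx2. For these percentiles the cause was not tested.

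The shared share was 0% at CDH17 in both libraries with summits within 50 bp, with both lists limited to −log10 q values of 5 or more, and with this threshold in the locus only. At MB, it was 0% in both libraries with 50 bp and with the threshold in both lists, and 0% for FLAG-wt-Cdx2 with the threshold in the locus only. At SLC5A8, it stayed within the interval of the main value under every alternative run, but these intervals were wide (14.7 to 94.7 and 11.8 to 88.2). Sharing at SLC5A8 remained above that of CDH17 in each. It also remained above that of MB, except by overlap of peaks for FLAG-wt-Cdx2, where both loci had 50.0%. By overlap for FLAG-wt-Cdx1, SLC5A8 had 60.0% and MB 50.0%. The threshold left fewer peaks at every locus, whereas the 50 bp limit removed none, and the cause of these changes was not tested. The pileup ratios at shared sites stayed within their intervals under both alternatives, scaling to the genome-wide background and the ratio of fold enrichments. As the first changes every ratio by the same factor and the intervals were wide, this says little about stability. The TSS placements of 9, 11 and 12 kb were chosen after the data were seen.

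No paired analysis was possible because each factor had a single library.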
